A study of Mus musculus with 37 samples.

Results

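The 7 genes described here are those of the B cell antigen receptor signalling pair (Cd79a, Cd79b), the B cell surface protein CD20 (Ms4a1), the receptors CD21 and CD23 (Cr2, Fcer2a) and a pair of genes used to mark germinal centre B cells (Gcsam, Bcl6). They were taken by symbol from 56351 genes, with earlier results of these data known, and each symbol matched 1 gene identifier. RNA had been recovered with tagged ribosomes from lymph nodes and spleen of mice labelled CD169 Cre KI/KI and Rpl22HA homozygous, the genotype of every group including the control. In such RiboTag mice Cre recombinase switches on a haemagglutinin-tagged copy of the ribosomal protein Rpl22, and ribosomes with their bound mRNA are then recovered with an antibody to the tag. Cre was driven from the CD169 (Siglec1) locus, and per the labels this switched on the tagged allele in all tissues, so the tag marks every cell that has expressed Cre. Each of 12 sites gave 3 libraries: gut nodes (ileal, ceco-colonic, jejunal, duodenal), liver and celiac nodes, the mediastinal, deep cervical, super cervical, inguinal and iliac nodes, and spleen. A single isotype control library came from jejunal node. Age, sex and whether animals were pooled are not given in the labels, so p-values measure the spread between these libraries, which may be partly technical.

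B cells recognise antigen with a surface immunoglobulin, and the proteins of Cd79a and Cd79b pass its signal into the cell. Ms4a1 encodes CD20, found on B cells from the precursor stage until they become plasma cells. Cr2 encodes CD21, the complement receptor that lowers the threshold for B cell activation, and follicular dendritic cells carry it as well. Fcer2a encodes CD23, the low-affinity IgE receptor of mature follicular B cells. Germinal centres are the sites in follicles where activated B cells divide and mutate their antigen receptor genes; Bcl6 is the transcriptional repressor that their formation requires, and Gcsam is a signalling adaptor expressed in germinal centre B cells. Bcl6 is not restricted to B cells: follicular helper T cells depend on it and macrophages express it. None of the 7 genes is a marker of the sinus macrophages named as the cell type in the labels, which is why their background level in the isotype library comes first.

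The promoters of 3 of the 7 genes are shown because these genes had different patterns over the sites: Cd79a was highest in mediastinal node, Gcsam in ceco-colonic node, and Cr2 differed little between most sites. Each runs 5′ to 3′ on the gene's strand from 250 bases before to 50 bases after the RefSeq start (build GRCm38.p6). Cd79a lies on the plus strand at chr7:24897247-24897546, Cr2 on the minus strand at chr1:195176670-195176969, and Gcsam on the plus strand at chr16:45610190-45610489. Capitals mark the E-box letters CAGGTG or their reverse complement CACCTG, the core bound by the B lineage factor E2A.

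Cd79a: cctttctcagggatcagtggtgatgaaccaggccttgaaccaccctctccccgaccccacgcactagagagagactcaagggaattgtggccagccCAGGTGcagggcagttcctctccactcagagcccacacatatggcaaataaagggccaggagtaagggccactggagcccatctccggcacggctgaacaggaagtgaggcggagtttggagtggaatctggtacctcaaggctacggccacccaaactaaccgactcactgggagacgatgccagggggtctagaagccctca
Cr2: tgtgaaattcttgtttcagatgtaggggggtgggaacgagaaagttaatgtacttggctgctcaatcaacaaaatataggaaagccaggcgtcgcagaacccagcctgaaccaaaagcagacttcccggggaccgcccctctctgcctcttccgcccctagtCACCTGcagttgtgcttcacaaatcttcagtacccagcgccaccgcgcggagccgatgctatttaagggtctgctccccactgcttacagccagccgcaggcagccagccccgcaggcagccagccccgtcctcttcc
Gcsam: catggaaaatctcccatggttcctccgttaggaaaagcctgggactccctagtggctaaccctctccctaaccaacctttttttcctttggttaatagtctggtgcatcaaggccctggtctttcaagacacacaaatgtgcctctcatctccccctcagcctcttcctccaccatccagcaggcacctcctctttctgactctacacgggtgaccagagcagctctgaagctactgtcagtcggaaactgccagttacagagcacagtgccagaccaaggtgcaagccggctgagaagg

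The letters lie 154 bases before the start of Cd79a and 88 bases before that of Cr2, and the Gcsam window holds none. Over both strands, 20.2% of 32851 RefSeq promoter windows of the same length hold them. Of the 7 genes 5 have a window in the RefSeq table, Bcl6 without and Fcer2a with a match in 1 of its alternative starts. In the GENCODE M21 annotation of GRCm38 the longest protein-coding transcripts range from 1431 bases for Cd79b on chromosome 11 to 6212 bases and 19 exons for Cr2 on chromosome 1. Ms4a1 is on chromosome 19, Fcer2a on chromosome 8, and Bcl6 shares chromosome 16 with Gcsam.

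Library totals ran from 221911 to 69139450 estimated counts, a 312-fold range, and 14 of the 36 pull-down libraries held fewer than 1000000. All duodenal, liver, celiac and iliac libraries and jejunal replicates 1 and 3 were among these, in which 3 abundant features (Gm19220, Rn18s-rs5, Lars2) held between 39% and 85.6% of counts. The other 22 came from spleen and from mediastinal, inguinal, ileal, ceco-colonic and both cervical nodes, all with 3 libraries, and jejunal replicate 2; the 6 nodes with 3 such libraries are called the deeply sequenced nodes. Siglec1, the gene of CD169, was at 0 in all jejunal libraries and in the isotype library and between 0 and 2.79 counts per 1000000 (CPM) in the libraries of the deeply sequenced nodes. The macrophage receptor gene Marco exceeded its isotype level of 29.4 CPM in every pull-down library except duodenal replicate 1. Levels below are CPM on library totals adjusted by the trimmed mean of M-values, and fold changes are from edgeR's quasi-likelihood test with Benjamini-Hochberg adjustment over all genes tested, a call being an adjusted p under 0.05.

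How much of each gene's signal exceeded the isotype background was asked first in jejunal node, the source of the control. Cd79a had 8.30, 76.0 and 22.7 CPM in jejunal pull-down replicates 1 to 3, against 8.99 CPM in the isotype library. Jejunal replicate 1 was below the control and the other two were above it. Ms4a1 had 91.3, 210 and 51.2 CPM in the pull-down, against 301 CPM, or 870 counts, in the isotype library. All 3 pull-down libraries were below the control for this gene, and the same held for Cd79b, Cr2, Fcer2a and Bcl6.

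None of the 7 genes was called between jejunal pull-down and isotype, where 0.0191% of 20944 genes were called higher and 0.0859% lower; 2 of the 7 had an unadjusted p under 0.05, as did 3700 of all genes, and DESeq2 called 0 of the 6 to which it gave an adjusted p (Gcsam had none). With 1 control library and 2 shallow jejunal ones, a missing call does not show that a gene's levels were alike. The log2 fold change of Cd79a was 2.08 ± 1.20 (SE, edgeR adjusted p = 0.357) and that of Ms4a1 was -1.33 ± 0.87 (edgeR adjusted p = 0.415). Cd79b (-1.93 ± 0.89) and Fcer2a (-2.26 ± 0.83) were the pair with an unadjusted p under 0.05. The median over all genes was 0. Gcsam rested on 11 jejunal and 3 isotype counts, a ratio per library total of 6.79 with an exact 95% interval of 1.79 to 37.9, and Bcl6 on 1 and 6 counts, a ratio of 0.309 with an interval of 0.00671 to 2.54; both intervals cover counting error only. With 1 control library, its spread had to be taken from the other groups, and the number of genes called ran from 0 to 1717 between tools and scalings.

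Beyond jejunal node, the 7 genes separated by how the deep pull-down libraries stood to the same control. Cd79a exceeded its isotype level in 19 of 19 deep node libraries, jejunal replicate 2 included, which ranged from 63.7 to 783 CPM around a median of 252, against 8.99 CPM in the isotype library. Bcl6 exceeded it in 18 of 19 (isotype 2.08 CPM), Cd79b in 16 of 19 (isotype 41.9 CPM) and Gcsam in 14 of 19 (isotype 1.04 CPM). Ms4a1 and Fcer2a exceeded it in 0 of 19 node libraries, whereas 2 of 3 spleen libraries were above it for both. Cr2 was in between, with 8 of 19 node libraries above its isotype level of 118 CPM. With the node means of 7 sites set against the isotype library in a fit of the deep libraries, Cd79a was 4.82 log2 units higher (edgeR adjusted p = 0.000596) and Ms4a1 1.34 lower, a log2 fold change of -1.34 (edgeR adjusted p = 0.0194), and the remaining 5 genes were not called; of all genes in that fit 22.7% were called higher and 16.6% lower. The sites differ from the control's there, so site and antibody cannot be told apart.

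The isotype library held much RNA of some other B cell genes. From a list of 22 other B cell genes, the summed level was 11047 CPM in the isotype library, above the 1145 to 2963 CPM of jejunal libraries and every other library. Bank1, a B cell scaffold protein gene, had 1088, 1734 and 767 CPM in jejunal pull-down libraries, against 5928 CPM in the isotype library. Pax5, the transcription factor that maintains B cell identity, had 423, 721 and 108 CPM in the pull-down, against 3888 CPM. Bank1 and Pax5 made up most of the isotype library's summed level. The median log2 fold change of the 22 genes, jejunal pull-down over isotype, was -0.59, against 0 over all genes. Bank1 and Pax5 were singled out after their values were seen, as was Fcmr, the IgM Fc receptor gene, at 0 in the isotype library. The macrophage list summed to 122, 4519 and 6360 CPM in jejunal pull-down libraries in ascending order, against 60.9 CPM in the isotype library. Marco alone had 71.1, 3996 and 5501 CPM of these jejunal sums and 29.4 CPM in the isotype library. By edgeR, 0 of 22 other B cell genes and 0 of 10 macrophage genes tested were called there, with 7 and 8 at an unadjusted p under 0.05. The nuclear non-coding RNA Malat1 took 26.61% of the isotype library's counts, the largest share of any library, and its part in these differences was not tested.

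**Figure D1:**
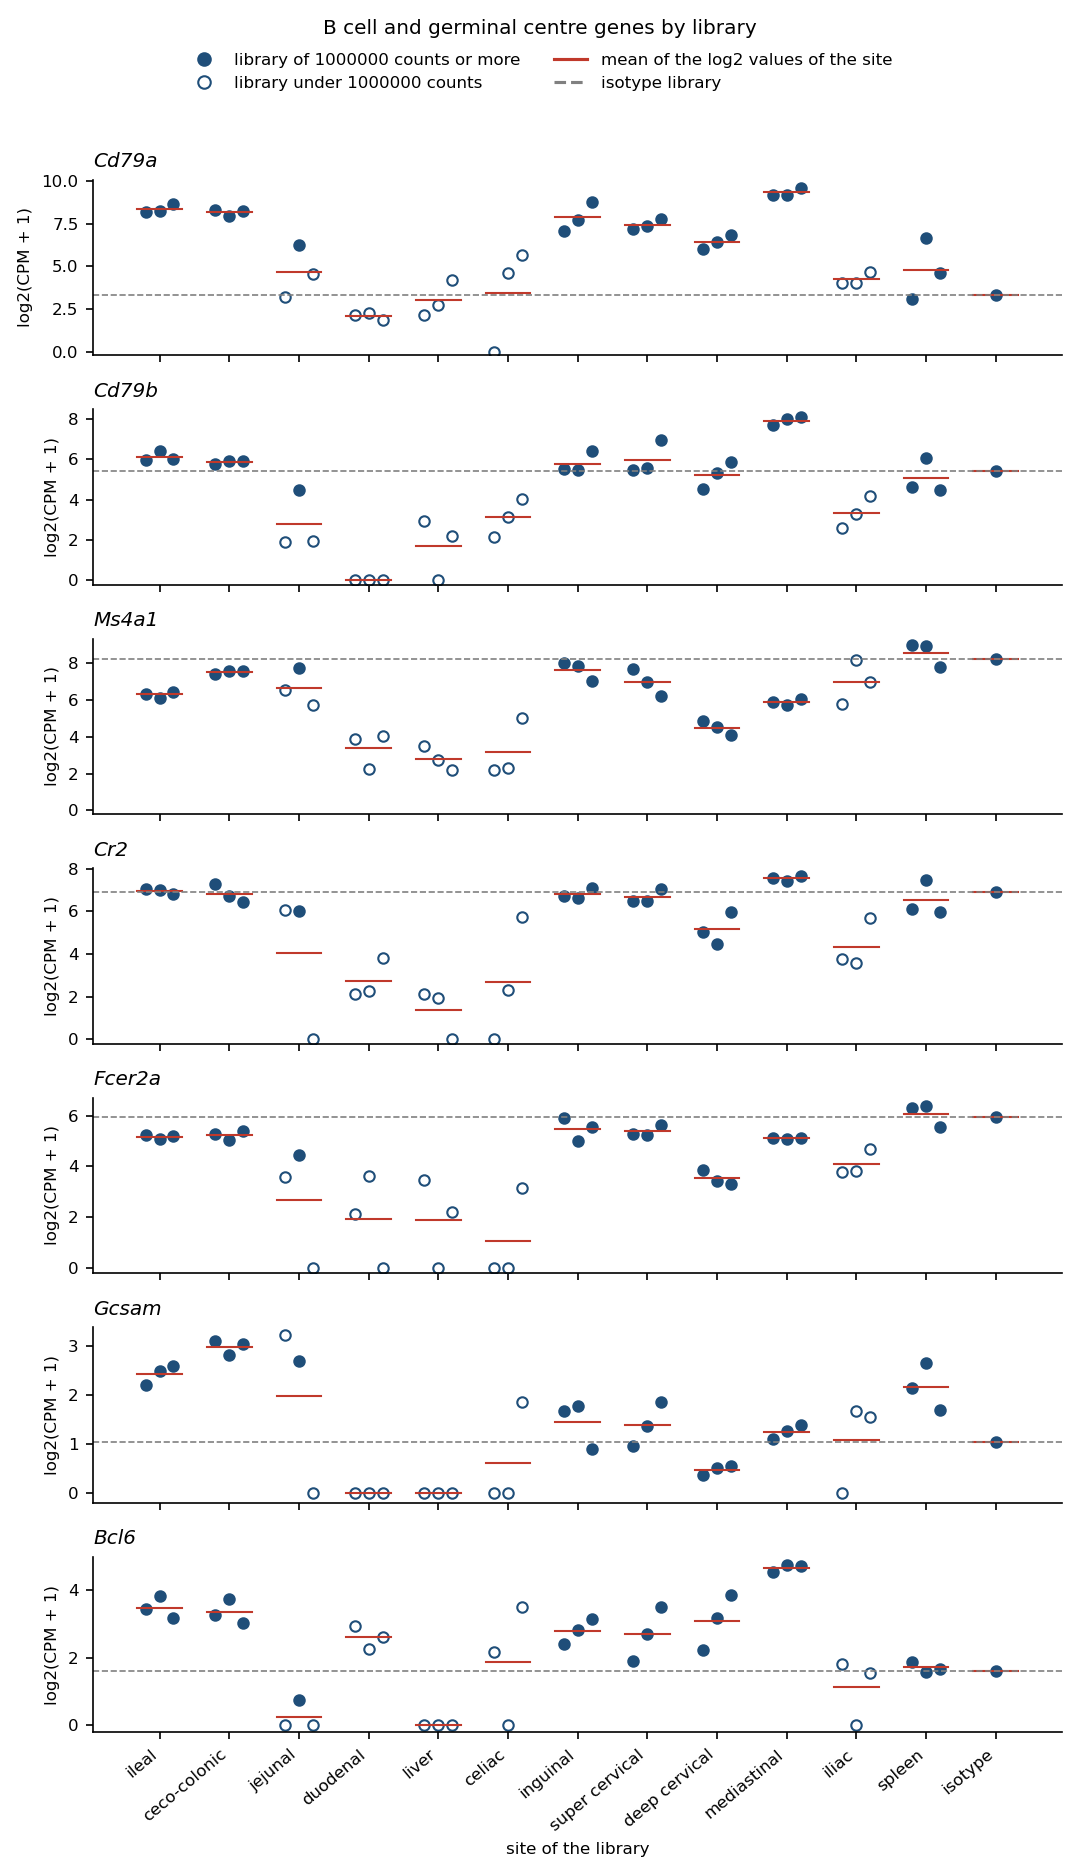
Level of the 7 genes in every library on a log2(CPM + 1) scale, by site; filled points are libraries of at least 1000000 counts, red lines are means of the log2 values, and the dashed line is the isotype library. Filled node points lie above the dashed line for Cd79a (19 of 19) and below it for Ms4a1 and Fcer2a (0 of 19 above).

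All 7 genes differed among the 6 deeply sequenced nodes (edgeR F test of 5 contrasts), but so did 56.8% of the 19702 genes tested. Cd79a averaged 657 ± 109 CPM in mediastinal node (SD, n = 3 libraries here and for each site below), with 597, 591 and 783 CPM. No library of another site reached this range. Ileal (337 ± 65.3 CPM), ceco-colonic (291 ± 34 CPM), inguinal (265 ± 162 CPM) and super cervical (176 ± 37.3 CPM) nodes followed, each overlapping the next. Deep cervical node was lower, with 63.7, 87.0 and 115 CPM, and was the one node whose range overlapped that of spleen (7.46, 101 and 23.2 CPM).

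Cd79b, whose protein pairs with that of Cd79a, was also highest in mediastinal node, with 207, 250 and 268 CPM. The next site, super cervical node, had 42.7, 46.0 and 121 CPM, and from there down each site overlapped the next, to deep cervical node with 39.4 ± 17.8 CPM and spleen with 37 ± 25.5 CPM. Its F test gave an edgeR adjusted p of 0.000164, against 0.00221 for Cd79a. Per kilobase of transcript, Cd79a exceeded Cd79b in the mean of each deeply sequenced node (451 against 169 CPM per kilobase in mediastinal node, 232 against 48.7 in ileal node). In the isotype library the order was the other way, with 6.17 CPM per kilobase for Cd79a and 29.3 for Cd79b.

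Ms4a1 was ordered differently. Spleen was highest, with 501, 475 and 217 CPM, and its range overlapped that of inguinal node with 256, 226 and 130 CPM. Ceco-colonic node had 168, 191 and 189 CPM and super cervical node 204, 126 and 73.7 CPM. Ileal (79.8, 68.8 and 84.3 CPM), mediastinal (57.5, 51.8 and 65.9 CPM) and deep cervical nodes (27.7, 22.2 and 16.0 CPM) came last and did not overlap each other. Mediastinal node, first for both genes of the signalling pair, was thus next to last for Ms4a1.

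For the receptor genes Cr2 and Fcer2a most sites lay close together, with deep cervical node lowest. Cr2 had its highest mean in mediastinal node, with 191, 170 and 198 CPM, followed without overlap by ileal node with 132, 129 and 110 CPM. Spleen replicate 2, at 178 CPM, was inside the mediastinal range. Ceco-colonic, inguinal and super cervical nodes and spleen averaged 114, 112, 103 and 103 CPM and overlapped in that order, above deep cervical node with 31.4, 21.4 and 62.7 CPM, whose highest library was within the spleen range. Fcer2a was highest in spleen (78.0, 82.2 and 45.3 CPM), and 5 of the 6 nodes averaged between 33.4 and 45.3 CPM. Deep cervical node stood below all of them, at 13.4, 9.65 and 8.98 CPM. When all 36 libraries entered the fit, neither gene was called any more among the 6 nodes (edgeR adjusted p = 0.203 for Cr2 and 0.0556 for Fcer2a).

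Both germinal centre genes were low. Bcl6 was highest in mediastinal node, with 22.4, 26.0 and 25.4 CPM, and no other library exceeded 13.7 CPM. Ileal (10.4 ± 2.68 CPM), ceco-colonic (9.46 ± 2.73 CPM), deep cervical (8.47 ± 5.01 CPM), super cervical (6.23 ± 3.86 CPM) and inguinal nodes (6.08 ± 1.73 CPM) overlapped in that order. Spleen had 2.71, 2.02 and 2.21 CPM, from 19 counts in all. Gcsam, in contrast, was highest in ceco-colonic node, with 7.59, 6.04 and 7.23 CPM from 70 counts. Ileal node followed with 3.63, 4.61 and 5.03 CPM, then spleen with 3.39, 5.27 and 2.21 CPM. Inguinal (1.82 ± 0.85 CPM), super cervical (1.7 ± 0.848 CPM) and mediastinal nodes (1.39 ± 0.241 CPM) overlapped, and deep cervical node was lowest with 0.285, 0.414 and 0.459 CPM. Per kilobase, Gcsam in ceco-colonic node (2.1 CPM) was below Bcl6 (2.68 CPM) and far below Ms4a1 (59.4 CPM).

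Between the deeply sequenced nodes and spleen the genes split. Cd79a, Bcl6 and Cd79b were higher in the nodes, Ms4a1 and Fcer2a were lower, and Cr2 and Gcsam were not called. A fit of all 36 libraries set the mean of every node site, shallow ones included, against spleen, which is another contrast. There Cd79a (0.57, edgeR adjusted p = 0.538) and Bcl6 (0.34, edgeR adjusted p = 1) were not called and Cd79b was at -1.44 (edgeR adjusted p = 0.0837). These 3 higher and 2 lower calls stand beside 31.4% of all 19702 genes called higher and 25.7% called lower, and the median of log2 fold changes was 0.14 over the 7 genes and 0.27 over all. In these bulk pull-downs, B cell number, RNA per B cell and background RNA of the kind seen in the isotype library cannot be told apart.

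Cd79a ranged from 63.7 to 783 CPM in the 18 node libraries, with a median of 272, against 7.46, 101 and 23.2 CPM in spleen. One spleen library overlapped the lower end of the nodes, and the log2 fold change was 2.63 ± 0.52 (edgeR adjusted p = 1.12e-04). Single spleen libraries moved its size: it was 1.92 without spleen replicate 1 and 4.25 without spleen replicate 2, both called. Bcl6 ranged from 2.79 to 26.0 CPM in the nodes (median 8.33), against 2.02 to 2.71 CPM in spleen. The log2 fold change was 2.28 ± 0.49 (edgeR adjusted p = 3.13e-04). The lowest node library, super cervical replicate 1, rested on 3 counts and the highest spleen library on 4, so the gap between the ranges is within counting error. Jejunal replicate 2, outside the 6 nodes, had 0.679 CPM from 1 count, below all spleen libraries. Ms4a1 ranged from 16.0 to 256 CPM in the nodes (median 82), against 217 to 501 CPM in spleen. Inguinal replicates 1 and 2 (256 and 226 CPM) were the node libraries inside the spleen range, and inguinal replicate 3 was at 130 CPM. The log2 fold change was -2.02 ± 0.27 (edgeR adjusted p = 8.04e-07).

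Fcer2a ranged from 8.98 to 59.4 CPM in the nodes (median 34.7), against 45.3, 78.0 and 82.2 CPM in ascending order in spleen, a log2 fold change of -1.02 ± 0.25 (edgeR adjusted p = 0.00121), which was not called without a filter on low counts (-0.82, edgeR adjusted p = 0.0510) or on plain totals (-0.23, edgeR adjusted p = 0.519). Cd79b had a log2 fold change of 1.09 ± 0.39 (edgeR adjusted p = 0.0188), which fell short of a call without spleen replicate 1 (0.63, edgeR adjusted p = 0.247), without spleen replicate 3 (0.60, edgeR adjusted p = 0.234) or without ileal replicate 3 (0.89, edgeR adjusted p = 0.0611). Cr2 (0.14 ± 0.33, edgeR adjusted p = 0.757) had a direction that depended on the setting. It was -0.07 with relative log expression scaling and called higher on plain totals (0.92, edgeR adjusted p = 0.0482). With every node site set against spleen over all 36 libraries, it was called lower (-1.41, edgeR adjusted p = 0.0219). Gcsam (-0.88 ± 0.41, edgeR adjusted p = 0.0676) was called lower with relative log expression scaling (-1.03, edgeR adjusted p = 0.0316) and with DESeq2 (-1.05, adjusted p = 0.0320). With every node site against spleen over all 36 libraries, Gcsam was at -2.47 and called lower (edgeR adjusted p = 0.0141). It was also called lower without spleen replicate 1 or 3, without ileal replicate 3 or without super cervical replicate 3 (edgeR adjusted p between 0.0134 and 0.0379). On plain library totals the median of all genes moved to 1.05, the calls were 8351 higher and 2738 lower in place of 6192 and 5057, and Fcer2a was at -0.23 (edgeR adjusted p = 0.519).

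The other B cell genes split in the same comparison: of 22 tested, 13 were called higher and 7 lower in the nodes, with a median of 1.58. Over all genes 31.4% were called higher and 25.7% lower, with a median of 0.27. Higher were Fcmr (3.76 ± 0.51), the activation marker gene Cd83 (3.17 ± 0.65), the transcriptional coactivator gene Pou2af1 (2.70 ± 0.67) and Blnk (2.61 ± 0.43), which encodes an adaptor below the antigen receptor. The lower genes, listed in full after their values were seen, were Bank1 (-2.25 ± 0.32), the tetraspanin gene Cd37 (-1.94 ± 0.34), Siglecg, Ralgps2, Pax5 (-1.33 ± 0.29), Ebf1 and Cd22. B cell markers were therefore not uniformly higher or lower in either organ. Fcmr had 13.1 to 104 CPM in the node libraries, against 2.04, 5.27 and 0 CPM in spleen, whereas Bank1 had 57.7 to 1343 CPM in the nodes and 1602 to 2999 CPM in spleen.

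Among 8 tested genes of other germinal centre B cell markers, 4 were higher in the nodes and 1 lower. The DNA glycosylase gene Neil1 (2.40), Fas (1.95), Efnb1 (1.83) and, to complete the count, Basp1 (1.17) were higher, and Mef2b, a transcriptional activator of Bcl6, was lower at -1.74 ± 0.61. Of 8 follicular dendritic cell genes 4 were higher and 3 lower: Enpp2 (4.33) and Clu (4.08) were among the higher and Coch (-3.93) among the lower. Cxcl13, the chemokine that draws B cells into follicles, ranged from 0.381 to 79.7 CPM in the nodes, against 0, 0.31 and 0 CPM in spleen, where it rested on 2 counts. Among genes of other cells, 9 of 12 T cell genes, 3 of 4 follicular helper T cell genes, 2 of 8 plasma cell genes and 6 of 11 macrophage genes were called higher and none lower. Over all genes 31.4% were called higher and 25.7% lower, and the plasma cell count was not above that share. The macrophage list summed to between 995 and 7765 CPM in the nodes and 209 to 3593 CPM in spleen, and Malat1 took 0.3195% to 15.68% of node counts and 7.225% to 11.57% of spleen counts; their part in the B cell values was not tested.

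**Figure D2:**
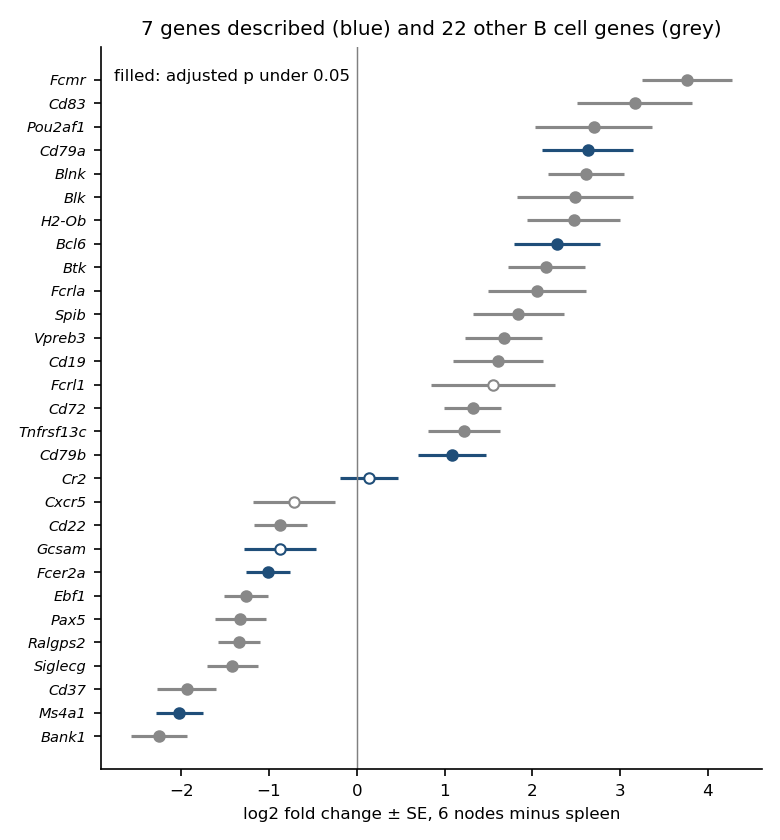
Log2 fold change of the 6 deeply sequenced nodes over spleen with its standard error for the 7 genes described (blue) and 22 other B cell genes (grey), in order of size; filled points passed an adjusted p of 0.05 in edgeR. Blue and grey points lie on both sides of 0, from Fcmr at 3.76 to Bank1 at -2.25.

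The series asks what sets the nodes of the small intestine apart, and ileal node is the small-intestinal node sequenced deeply in all its libraries. Gcsam was the one gene of the 7 called between ileal node and the 4 deeply sequenced nodes named for no digestive organ (mediastinal, inguinal, super cervical and deep cervical), where 1.61% of all genes were called higher and 1.28% lower. It had 3.63, 4.61 and 5.03 CPM in ileal node, against 0.285 to 2.61 CPM with a median of 1.27 in the 12 libraries of the 4 nodes. The ranges did not overlap, and the log2 fold change was 1.96 ± 0.34 (edgeR adjusted p = 6.51e-04). It was called with each single library left out (1.83 to 2.10) and with each of the 4 nodes left out (1.46 to 2.22).

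The other 6 genes had log2 fold changes between -0.14 ± 0.36 (Cd79b) and 0.61 ± 0.41 (Cd79a), with edgeR adjusted p between 0.660 and 1. None of 22 other B cell genes was called by edgeR and 1 had an unadjusted p under 0.05, with a median log2 fold change of 0.08. Of 8 other germinal centre genes Mef2b was called, with 1.21, 2.32 and 2.3 CPM in ileal node, against 0 to 0.826 CPM in the 4 nodes (log2 fold change 2.42 ± 0.50, edgeR adjusted p = 0.00419). Jchain of the plasma cell list (2.85) and Tox2 of the follicular helper T cell list (3.44) were higher and Sox9 of the follicular dendritic cell list (-1.37) lower. Of 11 macrophage genes 6 were higher, Marco among them at 2.28, and that list summed to between 7010 and 7765 CPM in ileal node and 995 to 3756 CPM in the 4 nodes. Marco alone had 4982 to 5935 CPM in ileal node and 432 to 2128 CPM in the 4 nodes, so the ileal sum was mostly Marco. Whether the summed macrophage level bears on Gcsam was not tested.

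Ceco-colonic node under the same contrast gave a second call. Gcsam had 7.59, 6.04 and 7.23 CPM there, against the same 0.285 to 2.61 CPM in the 4 nodes, a log2 fold change of 2.65 ± 0.37 (edgeR adjusted p = 2.00e-04). Ms4a1 had 168, 191 and 189 CPM, against 16.0 to 256 CPM with a median of 69.8 in the 4 nodes, a log2 fold change of 1.32 ± 0.30 (edgeR adjusted p = 0.0160). Its ceco-colonic values lay inside the range of the 4 nodes, above most of it but below inguinal replicates 1 and 2 and super cervical replicate 1. The Ms4a1 call was lost without any one of the ceco-colonic libraries (1.29 to 1.37, edgeR adjusted p between 0.0584 and 0.117), without deep cervical node (0.71, edgeR adjusted p = 0.293) and without mediastinal node (1.19, edgeR adjusted p = 0.0831). Over all genes 2.82% were called higher and 1.3% lower.

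The other 5 genes were not called in ceco-colonic node, from -0.41 ± 0.38 for Cd79b to 0.44 ± 0.27 for Fcer2a. Bank1 was the one other B cell gene of 22 that was called (1.28 ± 0.36, edgeR adjusted p = 0.0414), and of 8 other germinal centre genes 0 were called and 3 had an unadjusted p under 0.05. Cxcl13 of the follicular dendritic cell list was lower (-2.57 ± 0.71), with 1.48, 4.02 and 0.381 CPM in ceco-colonic node. Of 11 macrophage genes 3 were lower and none higher, and that list summed to between 1279 and 3121 CPM in ceco-colonic node, inside the range of 995 to 3756 CPM in the 4 nodes; its part in the Gcsam difference was not tested. The ileal and ceco-colonic contrasts share the libraries of the 4 nodes. The balance of calls over all genes depended on scaling in ceco-colonic node, with 556 higher and 256 lower, against 179 and 440 on plain totals and 387 and 393 with relative log expression; Gcsam was called under each.

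Set directly against each other, ileal and ceco-colonic nodes differed in none of the 7 genes by edgeR, where 0.213% of all genes were called higher and 0.0508% lower. Gcsam had 3.63 to 5.03 CPM in ileal node and 6.04 to 7.59 CPM in ceco-colonic node; the ranges did not overlap, but the log2 fold change of -0.68 ± 0.47 was not called (edgeR adjusted p = 0.549). Ms4a1, at 68.8 to 84.3 CPM in ileal node and 168 to 191 CPM in ceco-colonic node, had a log2 fold change of -1.26 ± 0.42 with an unadjusted p of 0.00521 in edgeR (adjusted p = 0.164), and DESeq2 called it (-1.20, adjusted p = 0.0172). It was the only one of the 7 with an unadjusted p under 0.05 in edgeR, as were 2700 of all genes.

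**Figure D3:**
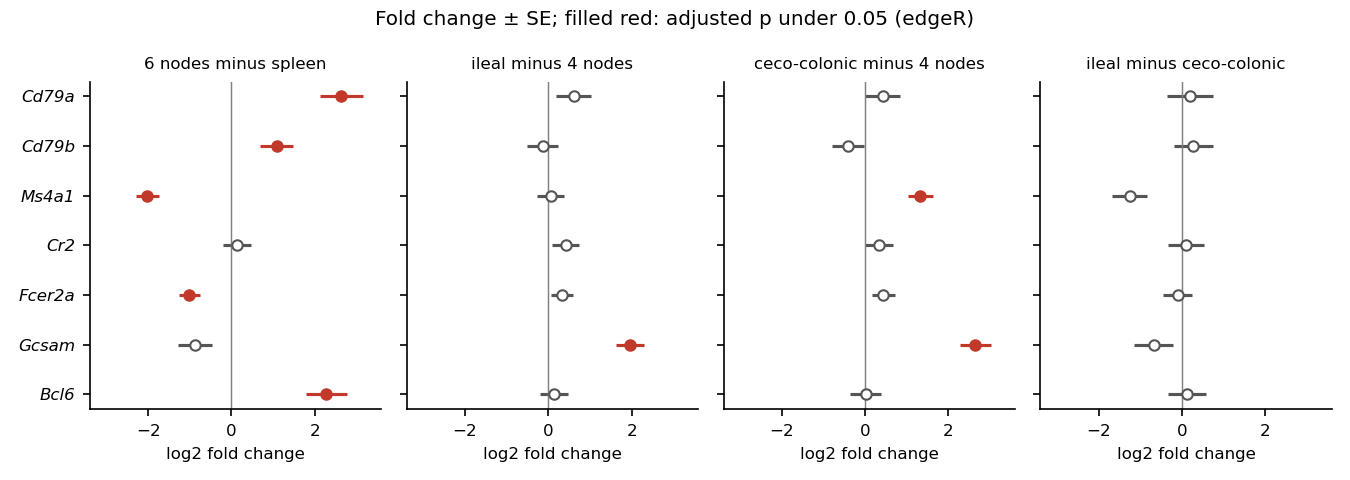
Log2 fold change with its standard error for the 7 genes in 4 comparisons of deeply sequenced sites; red filled points passed an adjusted p of 0.05 in edgeR. Calls are 3 higher and 2 lower for nodes over spleen, Gcsam alone for ileal node (1.96), Gcsam and Ms4a1 for ceco-colonic node (2.65 and 1.32), and none between the gut nodes.

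Sites differ in depth, so single libraries of similar total were set side by side. At 15808815 to 19209133 counts, Gcsam had 3.63 and 5.03 CPM in ileal replicates 1 and 3, against 0.848 CPM in inguinal replicate 3 and 0.459 CPM in deep cervical replicate 3. At 2373771 to 4847523 counts, it had 6.04 to 7.59 CPM in ceco-colonic libraries, against 2.18 and 2.43 CPM in inguinal replicates 1 and 2, 1.57 CPM in super cervical replicate 2, and 0.285 and 0.414 CPM in deep cervical replicates 1 and 2. For Cd79a at the greater depth, ileal node had 291 and 412 CPM, against 447 CPM in inguinal and 115 CPM in deep cervical node. Mediastinal node, highest for Cd79a, Cd79b, Cr2 and Bcl6, had no such match. Its libraries held 41240156 to 69139450 counts, and the next deepest, ileal replicate 2, held 31849079. For these genes, depth and site cannot be told apart in mediastinal node.

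With duodenal and jejunal nodes included, 3 small-intestinal nodes were set against 5 nodes (the 4 above and iliac) over all 36 pull-down libraries. Cd79a (-1.94 ± 0.47, edgeR adjusted p = 0.00409) and Cd79b (-4.77 ± 0.86, edgeR adjusted p = 6.18e-04) were called lower, where 21.7% of 16294 genes were called lower and 5.28% higher and the median of all genes was -0.91. Cd79a had 2.58 to 412 CPM in the small-intestinal libraries (median 22.7), against 15.3 to 783 CPM in the 5 nodes (median 144). Cd79b was at 0 in all 3 duodenal libraries, where 3 counts correspond to 10.1, 11.3 and 7.75 CPM, so its fitted fold change depends on the prior count and DESeq2 put it at -2.98. In libraries of at least 1000000 counts neither was called (Cd79a -0.43, edgeR adjusted p = 0.577; Cd79b -0.96, edgeR adjusted p = 0.154), and Gcsam was the one gene called, higher by 2.15 (edgeR adjusted p = 0.00421), where 2.84% of all genes were called higher and 1.28% lower. Over all 36 libraries, RLE scaling and DESeq2 each called 5 of the 7, all lower. Of all 16294 genes, RLE scaling called 4724 lower and 738 higher, and DESeq2 called 5115 lower and 1014 higher. In the shallow duodenal, liver and celiac libraries Gcsam was at 0 in 8 of 9, and depth and site cannot be told apart there.

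Because Cd79a and Ms4a1 were ordered so differently, their ratio of counts within each library was taken, a quantity that no scaling between libraries can change. The ratio was chosen after the values were seen and is given as a description. It was 10.4, 11.4 and 11.9 Cd79a counts per Ms4a1 count in mediastinal node, 3.65, 4.49 and 4.89 in ileal node and 2.3, 3.92 and 7.16 in deep cervical node. It was 1.88, 1.32 and 1.61 in ceco-colonic node, 0.53, 0.931 and 3.43 in inguinal node and 0.705, 1.33 and 2.95 in super cervical node. Jejunal replicate 2, the deep library from the control's own site, had the lowest ratio of the deep node libraries, 0.361. In spleen the ratio was 0.0149, 0.213 and 0.107, below every deep node library, and in the isotype library 0.0299, inside the spleen range.

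The share of counts on Malat1, a non-coding RNA that stays mostly in the nucleus, went the other way. It was 0.3195% to 0.6845% in mediastinal node, where the ratio was highest, and 26.61% in the isotype library. Within inguinal, super cervical and deep cervical nodes replicate 3 had the greatest depth, the highest ratio and the lowest Malat1 share (4.013%, 3.091% and 0.7219%). Spleen stood off this order, with ratios of 0.107 and 0.213 at Malat1 shares of 7.225% and 7.457%, where ceco-colonic replicate 2 had a ratio of 1.32 at 7.318%. The part of the Malat1 share and of depth in these ratios was not tested.

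**Figure D4:**
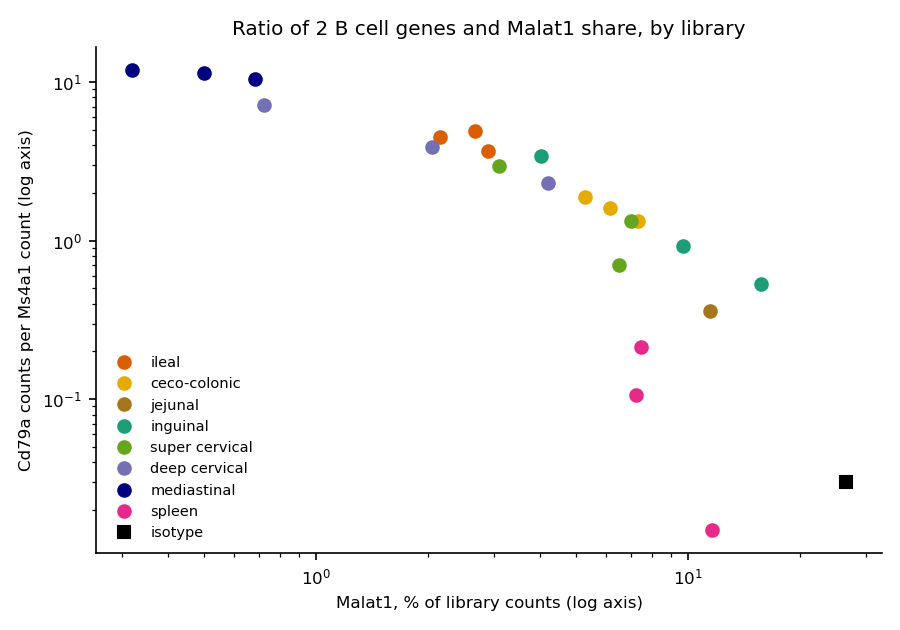
Cd79a counts per Ms4a1 count against the share of library counts on Malat1, both on log axes, for the 22 pull-down libraries of at least 1000000 counts and the isotype library (black square). Mediastinal libraries lie at upper left (10.4 to 11.9), spleen libraries below node libraries of like Malat1 share (0.0149 to 0.213).

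Over the 22 deep pull-down libraries the 7 genes fell into patterns that are given as description, since libraries of a site share its depth and makeup. Cd79a followed Cd79b (Pearson r = 0.815 of log2 CPM) and Cd79b followed Bcl6 (r = 0.824), while Ms4a1 followed Fcer2a (r = 0.811). Cd79a and Ms4a1 had an r of -0.285, and Ms4a1 and Bcl6 one of -0.559. Among 15164 genes compared, those most like each included Vpreb3, Il17ra and Map4k1 for Cd79a (r = 0.960 to 0.966), Ablim1 and Bin2 for Cd79b (r = 0.940 and 0.938), and Pecam1, Smc4 and Bank1 for Ms4a1 (r = 0.955 to 0.956). They were Bcl11a, Rhoh and Acap1 for Cr2 (r = 0.859 to 0.876), Pax5, Ptpn7 and Ulbp1 for Fcer2a (r = 0.889 to 0.915), Nkx2-3, Apoc4 and Mcm10 for Gcsam (r = 0.776 to 0.796), and Chic2, Itgb2 and Stard7 for Bcl6 (r = 0.935 to 0.944).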

How the data were processed

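The deposited table holds estimated counts per gene for 37 libraries, from polyadenylated RNA of ribosome pull-downs. The submitters' processing notes list kallisto, limma and edgeR without versions. Both GRCm39 and mm10 are named as builds, and which of them the counts rest on is unclear. How transcripts were summed to genes and whether strand was used are not given in the sources used here. In the deposited estimated counts, 32.8% of values were not whole with no tolerance, and all were rounded. The 211 genes with no symbol held 0.0159% to 0.115% of a library's counts and stayed in the tests.

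Tests used edgeR 4.0.16 in R 4.3.3 (quasi-likelihood, robust, TMM scaling, filterByExpr with a minimum count of 10 and a minimum total of 15), with Benjamini-Hochberg adjustment over all genes tested and a threshold of 0.05. The isotype comparison was fitted on 37 libraries, the small-intestinal one on 36, and the others on the 22 pull-down libraries of at least 1000000 counts. Printed CPM come from the 37-library scaling, fold changes from each comparison's own fit, and SE follow from each fold change with its F value. Replicate libraries differed beyond counting error (chi-square 10.8 to 198 per degree of freedom), so none was a duplicate. At a depth of 221911 to 69139450 counts, 3 counts correspond to 13.5 down to 0.0434 CPM on plain totals; these floors cover counting error only. Scripts were tested on simulated data.

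The 7 genes, the marker lists and the rule for naming genes (up to 4 called genes of a list per comparison with the largest fold change, and the 3 genes most correlated with each of the 7) were chosen with earlier results of these data known. One gene that this rule takes is not reported here. Alternatives were relative log expression scaling, no filter, plain totals, other library sets, DESeq2 1.42.0, a replicate block and single libraries or nodes left out.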

Additional observations from a re-analysis of the deposited data

How the results depend on the processing

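Of the log2 fold changes and counts recomputed under other settings, 1189 kept direction and side of the threshold, 47 changed sign, 22 gained and 16 lost a call, and 55 counts moved by over 1.5 times. The calls of Gcsam in ileal and ceco-colonic nodes and of Cd79a, Ms4a1 and Bcl6 in nodes against spleen held under every setting tried on the deep libraries. In all 36 libraries, nodes against spleen gave Cd79a 0.57 and Bcl6 0.34, no longer called, Cd79b -1.44 and Cr2 -1.41, with 4711 genes called; the F test among nodes called 7026. The cause was not tested for any value in this section, except that fewer samples enter where libraries are left out.

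For jejunal pull-down against isotype, genes called numbered 0 with relative log expression scaling and in a fit of those libraries alone, 124 without a filter, 126 on plain totals (108 higher, 18 lower), 909 on totals less 4 abundant features (843 higher, 66 lower), 1717 with DESeq2, and 7852 with 7 node groups against isotype, where 2 of the 7 genes were called, Cd79b was 0.80 and Bcl6 1.94. Leaving out a jejunal library gave 0 to 596. In nodes against spleen, Cr2 was -0.07 with relative log expression scaling and DESeq2, and ran from -0.34 to 0.78 with a library left out; Cd79b ran from 0.60 to 1.83 and Gcsam from -1.27 to -0.43.

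For ileal node against 4 nodes, genes called were 913 without a filter, 877 with DESeq2 (369 higher, 508 lower), 1112 without inguinal, 336 without deep cervical node, and 235 to 675 with a library left out. Signs changed for Ms4a1 (-0.03 with relative log expression scaling and DESeq2, -0.55 without deep cervical, -0.07 without mediastinal node, -0.01 to 0.17 with a library left out), Bcl6 (-0.08 without inguinal, -0.04 without super cervical node, -0.08 to 0.29), Cr2 (-0.03) and Fcer2a (-0.15) without deep cervical node, and Cd79b (0.40 without mediastinal node, -0.30 to 0.04).

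For ceco-colonic node against 4 nodes, genes called were 1641 without a filter, 1877 with DESeq2 (721 higher, 1156 lower), 3490 without inguinal, 2384 without super cervical, 76 without deep cervical and 106 without mediastinal node, and 63 to 1994 with a library left out. Of the 7 genes 1 was called without deep cervical or without mediastinal node, and 1 to 2 with a library left out. Signs changed for Bcl6 (-0.15 with relative log expression scaling and DESeq2, -0.03 without a filter, -0.42 on plain totals, -0.20, -0.15 and -0.06 without inguinal, super cervical or deep cervical node, -0.22 to 0.17 with a library left out), Cd79a (-0.01 on plain totals, -0.05 without deep cervical node), Cr2 (-0.07 and -0.12), Fcer2a (-0.05 without deep cervical node) and Cd79b (0.13 without mediastinal node). Ms4a1 ran from 1.25 to 1.42.

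For ileal against ceco-colonic node, genes called were 101 with relative log expression scaling, 508 without a filter and 612 with DESeq2 (378 higher, 234 lower), where 1 of the 7 was called, and 3 to 66 with a library left out, with Cr2 from -0.08 to 0.39 and Bcl6 from -0.09 to 0.36. For 3 small-intestinal against 5 nodes, 5 of the 7 were called with relative log expression scaling (5462 genes in all) and with DESeq2 (6129 genes in all, Gcsam 0.77). In libraries of at least 1000000 counts 1 was called (813 genes in all), with Ms4a1 at 0.82, Fcer2a at 0.01 and Gcsam at 2.15. With a library left out 2 to 5 were called, with 2864 to 5239 genes in all.

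The labels do not say what the replicate numbers mark, and no pairing was assumed. Between sites, 16 of 63 same-number pairs correlated above 0.1 (median r 0.021, against -0.021 for other pairs). These correlations cannot show whether same-number libraries share an animal or a batch. With a replicate block, genes called numbered 12 for jejunal pull-down against isotype and 88 for ileal against ceco-colonic node, and no call among the 7 genes changed. The plain-total and leave-one-node-out settings for the deep comparisons were chosen after seeing the data. The isotype comparison rests on 1 control library.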
